A study of Mus musculus with 12 samples.

Results

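The 9 classical histone deacetylase genes that were not targeted in Ocy454 cells (Hdac1, Hdac2, Hdac3, Hdac6, Hdac7, Hdac8, Hdac9, Hdac10 and Hdac11) were followed across 12 RNA-seq libraries. They were found by their Ensembl mouse identifiers among the 37583 gene IDs counted, and all 9 had reads in every library. Ocy454 is a mouse osteocyte line from long bone that carries a temperature-sensitive T antigen, and a single-cell subclone of it was used. Control cells, which the labels call original cells, and DKO cells, labelled as having a deletion of HDAC4 and HDAC5, were kept for 14 days at 37 °C, which turns the T antigen off. Each genotype was then left static or exposed for 3 h to fluid flow shear stress (FFSS) by orbital rotation on a heated platform, with 3 libraries in each of the 4 groups. For its CRISPR work the study gave Ocy454 cells a Cas9 lentivirus and gave control cells an empty guide lentivirus. How the DKO cells were derived, and whether they are a clone, is not given in the sources used here, so genotype and cell line cannot be told apart. The comparison asked whether the paralogs differed where Hdac4 and Hdac5 were reduced, and how each of them responded to FFSS.

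Histone deacetylases take acetyl groups off lysines of histones and other proteins. Class I enzymes (Hdac1, Hdac2, Hdac3 and Hdac8) are mostly nuclear, and the first 3 named are the catalytic subunits of large corepressor complexes. Class IIa proteins (Hdac4, Hdac5, Hdac7 and Hdac9) have little catalytic activity of their own, bind transcription factors such as MEF2, and move between nucleus and cytoplasm according to their phosphorylation. Class IIb enzymes (Hdac6 and Hdac10) act largely outside the nucleus, and Hdac11 is the only class IV member. In osteocytes, class IIa proteins are known for repressing Sost, the gene of the bone formation inhibitor sclerostin.

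Totals over genes were 17.6 to 19.2 M reads per library, and at this depth 3 counts, taken as the floor of detection, corresponded to under 1 CPM (counts scaled to the library total). A single library stood apart from its group. In control FFSS cells, chi-square per degree of freedom over genes was 63.8 and 58.0 for replicate 1 against the other two replicates and 6.45 between those, while pairs within the other groups lay between 2.02 and 5.66. The share of uniquely mapped reads outside genes was 5.87% in that library against 9.19% and 10.04% in the other control FFSS libraries, 5.10% to 5.21% in control static, 7.07% to 7.14% in DKO static and 7.93% to 8.55% in DKO FFSS cells. This share differed between the groups, so fits that use it as a covariate cannot separate it from FFSS or genotype. Within groups it varied mostly in control FFSS cells, so those fits lean on replicate 1 of that group. The osteocyte markers Dmp1 and Phex were detected in every library. The summed level of 6 osteocyte markers was 78.1 to 117 CPM in control static and 62.5 to 184 CPM in control FFSS cells, against 3600 to 3687 CPM in DKO static and 3619 to 4023 CPM in DKO FFSS cells. Sost, Dmp1 and Phex carried the sum in DKO cells. The osteocyte marker Pdpn went the other way, at 27.6 to 29.3 CPM in control static and 40.1 to 51.2 CPM in control FFSS cells against at most 5.28 CPM in DKO static and 6.60 to 7.96 CPM in DKO FFSS cells. Fgf23 had at most 1 count in any library. Mepe had at most 0.211 CPM in control cells. The 4 chondrocyte markers summed to at most 102 CPM in control cells and to between 2001 and 2944 CPM in DKO cells, with Col2a1 as the main one, while Acan was at 4.27 to 6.95 CPM in control static and 3.89 to 6.55 CPM in DKO static cells. The 4 macrophage and osteoclast markers summed to 15.5 to 28.6 CPM in control and 2.91 to 3.45 CPM in DKO cells, mostly Cd68, with Csf1r at 0.605 to 0.833 CPM in DKO static cells, and the 4 adipocyte markers to at most 2.83 CPM. Summed markers of endothelial cells and of skeletal muscle stayed under 1 CPM in all 12 libraries. In bulk RNA, fewer cells of a type and less RNA per cell cannot be told apart.

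The targeted genes were examined first. The longer of the 2 Hdac4 gene IDs (chr1:93829334-94044970 in mm9) had 550, 458 and 484 counts in control static cells and 220, 309 and 259 in DKO static cells. Hdac5 (chr11:102055746-102091480) had 2473, 2706 and 2421 counts in control static cells and 1503, 1461 and 1634 in DKO static cells. Both genes were thus lower in every DKO static library but far from absent. In the static comparison the log2 fold change was −0.85 ± 0.14 (SE) for Hdac4 (edgeR quasi-likelihood test, adjusted p = 0.000102) and −0.65 ± 0.08 for Hdac5 (adjusted p = 7.94e-06). The shorter Hdac4 ID gave −0.39 ± 0.14 (adjusted p = 0.0281), a call lost in 6 of 21 alternative fits. These were the fits without control static replicate 1 or 3, without DKO static replicate 1, 2 or 3, and with the library's share of reads outside genes as a covariate, which gave −0.10 (adjusted p = 0.412). In FFSS cells the longer Hdac4 ID was lower in DKO than in control by a log2 fold change of −1.48 ± 0.14 (adjusted p = 5.65e-07). FFSS raised it in control cells (0.50 ± 0.13, adjusted p = 0.00882, and 0.15 with that covariate, adjusted p = 0.552) and gave −0.12 ± 0.14 in DKO cells (adjusted p = 0.8). The shorter Hdac4 ID was also lower in DKO FFSS than in control FFSS cells (−0.50 ± 0.14, adjusted p = 0.00638, and −0.28 without control FFSS replicate 1), but its response to FFSS in control cells was 0.07 ± 0.13 (adjusted p = 0.723, and 0.51 with that covariate, adjusted p = 0.00648). Hdac5 was not lower in DKO FFSS cells, with 0.19 ± 0.08 (adjusted p = 0.0512), and it was called higher there in 6 of 21 alternative fits, among them 0.27 (adjusted p = 0.000485) without control FFSS replicate 1, while it was 0.11 (adjusted p = 0.221) without control FFSS replicate 2. Counts of RNA do not report on protein.

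Hdac9, the smallest in level of the 9 in control cells, showed the largest differences, so the windows around its RefSeq start sites are shown. Hdac9 lies on the minus strand at chr12:34732451-35213754 in mm9. RefSeq places 2 starts for it in GRCm38.p6, and each window runs from 250 bases before to 50 bases after the start, 5′ to 3′ on the gene's strand, with the E-box letters CAGCTG in capitals. The first window is chr12:34528840-34529139 and the second is chr12:34917046-34917345.
Hdac9, first start: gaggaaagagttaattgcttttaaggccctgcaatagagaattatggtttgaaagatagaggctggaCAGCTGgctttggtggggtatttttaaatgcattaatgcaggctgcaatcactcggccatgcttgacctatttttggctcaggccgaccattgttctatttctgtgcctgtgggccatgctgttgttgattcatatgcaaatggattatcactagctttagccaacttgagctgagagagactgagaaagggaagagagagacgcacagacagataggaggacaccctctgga
Hdac9, second start: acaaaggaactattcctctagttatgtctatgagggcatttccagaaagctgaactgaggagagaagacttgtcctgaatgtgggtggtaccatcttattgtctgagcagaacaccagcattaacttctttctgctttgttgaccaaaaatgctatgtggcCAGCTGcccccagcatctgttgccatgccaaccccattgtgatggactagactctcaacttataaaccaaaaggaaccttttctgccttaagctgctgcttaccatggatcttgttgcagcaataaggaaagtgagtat
The first window was 45.3% G and C with 3 CpG dinucleotides and the second 44.0% with 0, against medians of 52.7% and 7 over the 32851 promoter windows of the same length. Both strands of each window were searched for the MEF2 consensus, the CArG box, the AP-1 letters TGAGTCA, the cAMP response element letters TGACGTCA, the HIF core ACGTG, the GC box GGGCGG and the E-box CAGCTG. Each Hdac9 window held CAGCTG, which reads the same on both strands, 1 time and none of the other letters. These E-box letters occur in 16.3% of all promoter windows, the MEF2 consensus in 3.19%, the CArG box in 1.63%, the AP-1 letters in 5.20%, the cAMP response element in 1.79%, the HIF core in 19.6% and the GC box in 35.7%. Of the other members with an entry, Hdac2, Hdac6 and Hdac11 held the GC box, as did 1 of the Hdac7 windows, another Hdac7 window held the AP-1 letters and the E-box, Hdac11 also held the E-box and Hdac6 the HIF core, and Hdac8 held none of the letters searched. The MEF2 consensus was in the window of the targeted Hdac5 and in no window of the 6 members that have an entry. Entries were lacking for Hdac1, Hdac3 and Hdac10. A match is a description of letters in a window, not a binding site.

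Levels were compared between genes as CPM per kilobase of annotated exon. In control static cells Hdac2 was highest at 34.2 ± 1.14 CPM per kilobase (SD, n = 3), followed by Hdac3 at 25.0 ± 0.631 and Hdac7 at 22.7 ± 0.645. Hdac6 (14.0 ± 0.816) and Hdac1 (12.5 ± 0.847) came next and overlapped each other. Hdac10 (5.47 ± 0.184), Hdac8 (3.22 ± 0.143) and Hdac11 (2.43 ± 0.162) were lower, and Hdac9 was last at 0.663 ± 0.0762. All other neighbours in this order were separated by more than the range of their libraries. The order was the same in control FFSS cells, where Hdac2 overlapped Hdac3 and Hdac7 overlapped Hdac6. In DKO static cells the order of the first 7 was again the same, with Hdac2 overlapping Hdac3 and Hdac6 overlapping Hdac1. Hdac9, at 3.11 ± 0.311 CPM per kilobase, stood in 8th place there, overlapping Hdac8 (3.38 ± 0.204) and above Hdac11 (1.96 ± 0.288). This place depends on the exon length, which is longest for Hdac9 among the members (9609 bp). In CPM, without that scaling, Hdac9 in DKO static cells (29.9) was above Hdac10 (21.4), Hdac8 (16.4) and Hdac11 (7.5). In DKO FFSS cells Hdac3 (26.7 ± 0.992) and Hdac2 (25.7 ± 1.40) overlapped at the top, and Hdac9 (2.43 ± 0.0957) again overlapped Hdac8 and lay above Hdac11.

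**Figure D1:**
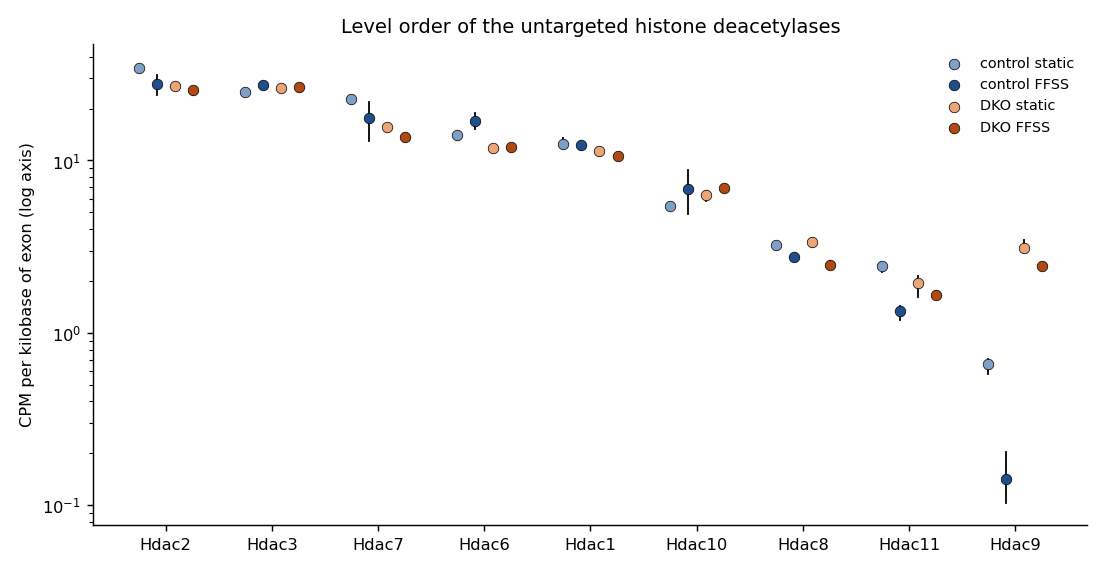
Mean CPM per kilobase of exon of each untargeted histone deacetylase on a log axis, in the order of control static cells, with points for the 4 groups and lines from the lowest to the highest of 3 libraries. Hdac9 goes from 0.663 in control static cells to 3.11 in DKO static cells, while the genes from Hdac2 to Hdac8 keep close to their places.

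In static cells, DKO differed from control most for Hdac9, a class IIa paralog that binds MEF2 factors. Hdac9 was at 6.76, 6.82 and 5.53 CPM in the control libraries and at 28.1, 33.4 and 28.2 CPM in the DKO libraries. Every DKO library was above every control library. The log2 fold change was 2.23 ± 0.14 (SE), a 4.69-fold higher level in DKO cells (edgeR, adjusted p = 1.27e-08). It passed the threshold of an adjusted p under 0.05 in all 21 alternative fits, with values from 2.14 to 2.61. The summed osteocyte and chondrocyte markers given above moved with this difference, as did the summed osteoblast markers, at 16960 to 20530 CPM in control static and 49930 to 57600 CPM in DKO static cells, and their part in it was not tested. Col1a1 carried most of the osteoblast sum (14900 to 18270 against 47280 to 54730 CPM), whereas Alpl was at 1531 to 1696 and 1681 to 1914 CPM.

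Hdac7, the other untargeted class IIa gene (chr15:97623095-97674933) and best known from thymocytes and endothelium, went the opposite way. It was at 127, 128 and 121 CPM in control static libraries and at 89.9, 82.5 and 87.8 CPM in DKO static libraries, without overlap. Its log2 fold change was −0.53 ± 0.14 (adjusted p = 0.00571), and −0.87 (adjusted p = 4.14e-11) with the share of reads outside genes as a covariate. Its annotation shares 29 bp of exon with Slc48a1 on the opposite strand, and since counting ignored strand, reads in that stretch (0.524% of the Hdac7 exons) were not assigned.

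Among class I genes, only Hdac2 passed the test in static cells. Hdac2, a subunit of the Sin3, NuRD and CoREST corepressor complexes (chr10:36694350-36721695), had 2894, 2851 and 3014 counts in control and 2280, 2201 and 2084 in DKO libraries. Its log2 fold change was −0.35 ± 0.08 (adjusted p = 0.00227), a 1.27-fold lower level in DKO cells, and −0.20 (adjusted p = 0.0162) with that covariate. Hdac1, its partner in those complexes (chr4:129193348-129219957), averaged 43.2 ± 2.93 CPM in control and 38.9 ± 2.27 CPM in DKO cells, with a log2 fold change of −0.15 and a 95% interval of −0.30 to 0.01 (adjusted p = 0.0953). It passed in 3 of 21 alternative fits, with library totals alone (−0.23, adjusted p = 0.0116), with only the 6 static libraries (−0.15, adjusted p = 0.0393) and without control FFSS replicate 1 (−0.15, adjusted p = 0.0442). Hdac3, the catalytic subunit of the NCoR complex, gave 0.07, with an interval of −0.04 to 0.17 (adjusted p = 0.282). Hdac8, an X-linked enzyme that deacetylates cohesin (chrX:99479978-99700698), gave 0.07, with an interval of −0.11 to 0.25 (adjusted p = 0.512).

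Hdac6, the main deacetylase of tubulin (chrX:7507246-7525015), was at 76.2, 85.2 and 83.4 CPM in control and at 67.9, 67.9 and 69.4 CPM in DKO static libraries. The DKO values were all lower and closer together, and the log2 fold change was −0.25 ± 0.07 (adjusted p = 0.00754). Hdac10, which deacetylates polyamines (chr15:88953733-88959130), averaged 18.5 ± 0.621 CPM in control and 21.4 ± 1.41 CPM in DKO cells. Its log2 fold change was 0.21 ± 0.15 (adjusted p = 0.277), which passed with only the 6 static libraries (adjusted p = 0.0162) and without control FFSS replicate 1 (adjusted p = 0.0389) but turned to −0.16 (adjusted p = 0.191) with the share of reads outside genes as covariate. Hdac11, which removes long fatty acyl groups from lysines (chr6:91106659-91124686), had 182, 188 and 164 counts in control and 149, 114 and 147 in DKO libraries. Its log2 fold change of −0.31 ± 0.12 was just past the threshold (adjusted p = 0.0486) and missed it in 10 of 21 alternative fits, with adjusted p from 0.0178 to 0.21. Without DKO static replicate 2, its lowest library, it was −0.19 (adjusted p = 0.21).

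In total, 1 of the 9 members was higher and 4 were lower in DKO than in control static cells. Over all 14904 genes tested, 27.0% were higher and 27.2% lower, so passing the test was common in this comparison. With the additional requirement of a change of more than 2-fold, Hdac9 was the only member called, where 7.98% of all genes were called higher. The median log2 fold change of the members was −0.15, against 0.01 over all genes tested.

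**Figure D2:**
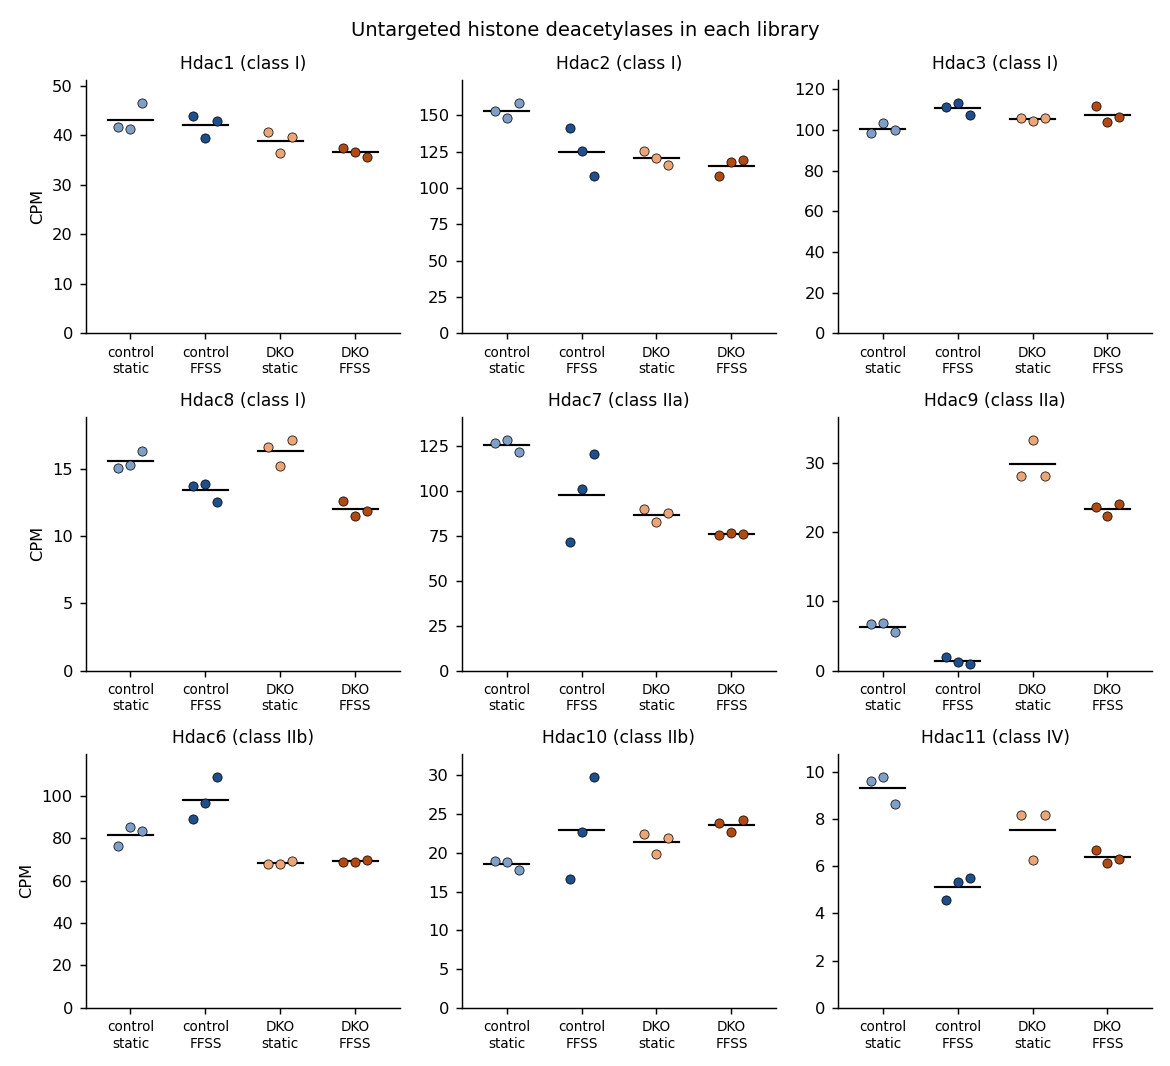
CPM of the 9 untargeted histone deacetylases, 1 point per library and a line at the mean of each group of 3, on axes that start at 0. Hdac9 lies between 0.99 and 6.82 CPM in control cells and between 22.4 and 33.4 CPM in DKO cells, and Hdac7 in control FFSS cells spreads from 71.3 to 121 CPM.

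After FFSS, the genotypes were further apart for Hdac9. It had 38, 24 and 20 counts in control FFSS libraries and 429, 376 and 431 in DKO FFSS libraries, which is 1.95, 1.17 and 0.99 CPM against 23.7, 22.4 and 24.1 CPM. The lowest DKO library lay far above the highest control library. The log2 fold change was 4.09 ± 0.17 (edgeR, adjusted p = 3.6e-10), a 17.1-fold higher level in DKO cells, and it was 4.43 without control FFSS replicate 1. The osteocyte and chondrocyte marker sums moved with this difference too. So did the osteoblast sum, at 5891 to 16750 CPM in control FFSS and 52490 to 54060 CPM in DKO FFSS cells. Their part in it was not tested.

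Hdac6 was lower in DKO FFSS cells, at 69.0, 68.8 and 69.9 CPM against 89.0, 96.7 and 109 CPM in control FFSS cells. All 3 DKO libraries lay below the lowest control library, and the log2 fold change was −0.50 ± 0.07 (adjusted p = 3.29e-05). Hdac1 was at 37.5, 36.5 and 35.6 CPM in DKO FFSS and at 43.9, 39.5 and 42.9 CPM in control FFSS libraries, again without overlap. Its log2 fold change was −0.21 ± 0.07 (adjusted p = 0.0245), a call lost in 5 of 21 alternative fits. Hdac7 was at 75.5, 76.3 and 76.0 CPM in DKO FFSS cells but spread from 71.3 over 101 to 121 CPM in control FFSS cells. The groups overlapped through control FFSS replicate 1, the library that stood apart. The log2 fold change was −0.36 ± 0.14 (adjusted p = 0.0405), a call lost in 15 of 21 alternative fits, and −0.55 (adjusted p = 8.64e-09) without that library. Without control FFSS replicate 3 it was −0.18 (adjusted p = 0.176).

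The remaining 5 members did not pass the test in FFSS cells. Hdac2 gave −0.11, with a 95% interval of −0.29 to 0.06 (adjusted p = 0.248), and it was −0.21 (adjusted p = 0.0204) without control FFSS replicate 3 and −0.02 (adjusted p = 0.812) without control FFSS replicate 1. Hdac3 gave −0.04, with an interval of −0.15 to 0.06 (adjusted p = 0.49). Hdac8 gave −0.16 (−0.34 to 0.03, adjusted p = 0.136) and Hdac10 gave 0.03 (−0.30 to 0.36, adjusted p = 0.869). Hdac11 averaged 5.13 ± 0.490 CPM in control and 6.38 ± 0.286 CPM in DKO FFSS cells, with a log2 fold change of 0.31 ± 0.13 (adjusted p = 0.0585) that passed in 3 of 21 alternative fits. With library totals alone, which put the median of all genes at −0.25, Hdac2 (−0.31, adjusted p = 0.0019), Hdac3 (−0.24, adjusted p = 0.00171) and Hdac8 (−0.35, adjusted p = 0.00315) were called lower as well. The counts were 1 member higher and 3 lower, where 27.0% and 29.6% of all genes tested were called in those directions. Hdac9 was the only member past 2-fold, against 8.25% of all genes called higher by that rule. The median over the members was −0.11, and over all genes −0.05.

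**Figure D3:**
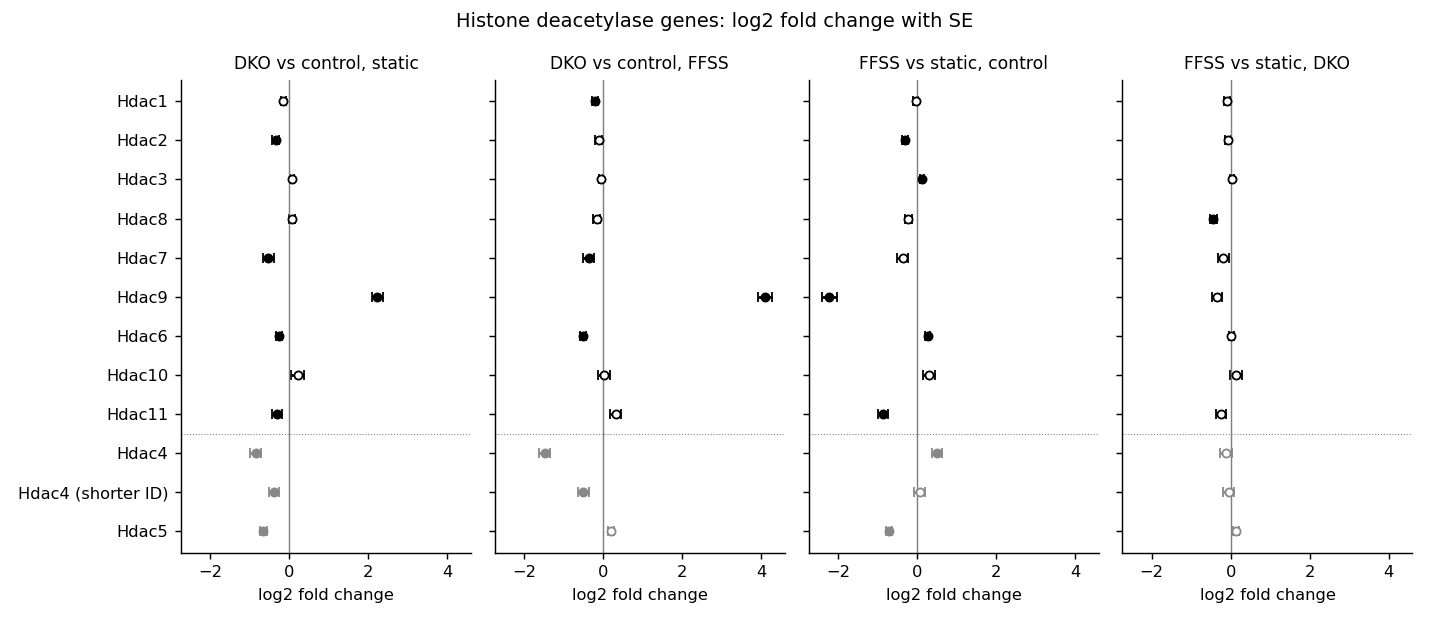
Log2 fold changes (points) with SE (bars) of the untargeted members (black) and of the targeted genes (grey) in the 4 pairwise comparisons, where filled points passed an adjusted p under 0.05. Hdac9 stands at 2.23 and 4.09 for DKO against control and at −2.22 for FFSS in control cells, while the other members lie within 1 log2 unit of 0.

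In control cells, 3 h of FFSS lowered Hdac9 and Hdac11 most. Hdac9 had 128, 131 and 105 counts in static libraries and 38, 24 and 20 after FFSS, so the highest FFSS library was below the lowest static library. The log2 fold change was −2.22 ± 0.19 (edgeR, adjusted p = 5.6e-06), a 4.65-fold fall from 6.37 ± 0.732 to 1.37 ± 0.511 CPM (SD, n = 3). Hdac11 had 182, 188 and 164 counts in static libraries and 89, 109 and 111 after FFSS. Its log2 fold change was −0.86 ± 0.13 (adjusted p = 0.00031), a 1.82-fold fall. Both calls held in all 21 alternative fits, with ranges of −2.55 to −1.63 for Hdac9 and −1.08 to −0.74 for Hdac11.

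Hdac2 fell and Hdac6 rose by smaller amounts. Hdac2 was at 141, 125 and 108 CPM after FFSS against 153, 148 and 159 CPM in static libraries, with a log2 fold change of −0.30 ± 0.08 (adjusted p = 0.0124) that missed the threshold in 4 of 21 alternative fits. It was −0.18 with library totals alone (adjusted p = 0.0622) and −0.06 with the share of reads outside genes as a covariate (adjusted p = 0.708). That share differed between static and FFSS libraries, so the covariate fit cannot separate it from FFSS. Hdac6 was at 89.0, 96.7 and 109 CPM after FFSS against 76.2, 85.2 and 83.4 CPM, with 0.27 ± 0.07 (adjusted p = 0.0106), missed in 3 of 21, among them 0.06 with that covariate (adjusted p = 0.67). In both genes control FFSS replicate 1 was the FFSS library nearest to the static level. Hdac3 rose from 101 ± 2.56 to 111 ± 3.09 CPM, with 0.14 ± 0.05 (adjusted p = 0.0475), a call lost in 16 of 21 alternative fits.

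Hdac7 gave −0.36 ± 0.14 (adjusted p = 0.0578), and it passed in 6 of 21 alternative fits, at −0.54 (adjusted p = 0.00432) without control FFSS replicate 3 and −0.95 (adjusted p = 1.1e-07) with the covariate. Hdac8 gave −0.22 ± 0.08 (adjusted p = 0.0612), Hdac10 0.32 ± 0.15 (adjusted p = 0.125) and Hdac1 −0.03 ± 0.07 (adjusted p = 0.738). Hdac10 was at 16.6 CPM in control FFSS replicate 1 and at 22.6 and 29.8 CPM in the other 2 libraries, so 1 library lay below and 2 above the static range of 17.8 to 18.9 CPM. In total 2 members were higher and 3 lower after FFSS in control cells, where 17.7% and 18.1% of the 14904 genes were called in those directions. Hdac9 alone was lower by more than 2-fold, as were 1.97% of all genes. Without control FFSS replicate 1, 8 of 9 members passed, Hdac1 being the exception, but so did 55.2% of all genes. In that fit Hdac10 gave 0.50 (adjusted p = 4.42e-05, against −0.32 with all libraries and the covariate, adjusted p = 0.105), Hdac7 −0.18 (adjusted p = 0.0138) and Hdac8 −0.23 (adjusted p = 0.0359). The summed osteoblast markers moved too, from 16960 to 20530 CPM in control static cells to 5891 to 16750 CPM in control FFSS cells, and their part in these changes was not tested.

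In DKO cells, 3 h of FFSS changed 1 member, Hdac8. It was at 16.7, 15.3 and 17.2 CPM in static and at 12.6, 11.5 and 11.9 CPM in FFSS libraries, without overlap. The log2 fold change was −0.44 ± 0.09 (edgeR, adjusted p = 0.0298), and the call was lost in 10 of 21 alternative fits, in which the value stayed between −0.49 and −0.41. Hdac9 gave −0.35 ± 0.13 (adjusted p = 0.218), from 29.9 ± 2.99 to 23.4 ± 0.919 CPM, with the highest FFSS library below the lowest static one. The remaining 7 members lay between −0.24 (Hdac11) and 0.14 (Hdac10), none past the threshold. Calls in DKO cells were rare at all: 0.376% of genes tested were higher and 0.497% lower after FFSS. Without control FFSS replicate 1, whose spread enters the shared fit, 3 members passed and so did 10.5% of all genes. These were Hdac8 (adjusted p = 0.00114), Hdac9 (−0.35, adjusted p = 0.00408) and Hdac7 (−0.19, adjusted p = 0.0286).

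**Figure D4:**
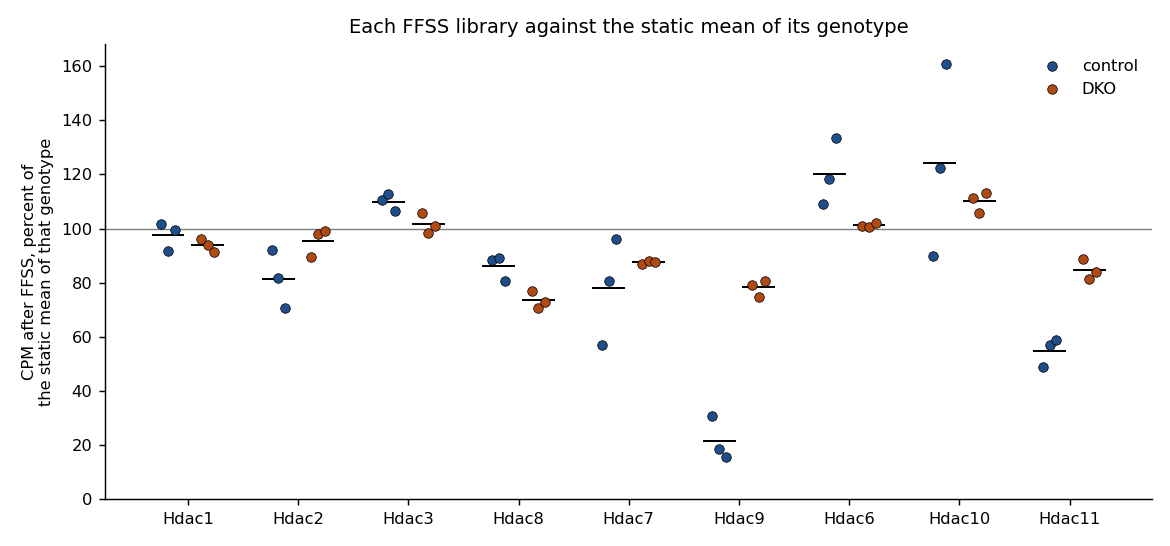
CPM of each FFSS library as a percent of the static mean of its own genotype, with control in blue, DKO in orange, a line at the mean of 3 libraries and a horizontal line at 100%. Hdac9 is at 15.5% to 30.6% in control and at 74.8% to 80.6% in DKO cells, and Hdac11 at 48.9% to 58.8% and 81.3% to 88.8%.

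The difference between the FFSS responses of the 2 genotypes was tested as an interaction, the log2 fold change in DKO minus that in control cells. Hdac9 was the only member that passed, at 1.86 ± 0.23 (edgeR, adjusted p = 0.000953). After FFSS it stood at 15.5%, 18.4% and 30.6% of the static mean in control libraries and at 74.8%, 79.3% and 80.6% in DKO libraries. All 20 alternative fits kept the call, with values from 1.49 to 2.20. Hdac11 gave 0.62 ± 0.18 (adjusted p = 0.0744), and Hdac6 gave −0.25 ± 0.10 (adjusted p = 0.155). Among all genes, 2.28% passed with a positive and 1.68% with a negative interaction, and 0.376% were positive by more than 2-fold, as Hdac9 was. The targeted Hdac5 also passed, at 0.85 ± 0.11 (adjusted p = 0.00152). FFSS lowered it in control cells (−0.71 ± 0.08, adjusted p = 3.58e-05) and gave 0.14 ± 0.08 in DKO cells (adjusted p = 0.519). Without control FFSS replicate 1, 5 members passed, Hdac2, Hdac6, Hdac9, Hdac10 and Hdac11, where 37.8% of all genes did. The genotype and FFSS comparisons above share their libraries in pairs, so they are not independent of each other.

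Summed over class IIa in static cells, the higher Hdac9 did not make up the amount of transcript by which the other 3 genes were lower. In static cells the class IIa sum (Hdac4 with both IDs, Hdac5, Hdac7 and Hdac9) was 46.6, 46.9 and 44.8 CPM per kilobase in control libraries and 33.1, 32.9 and 34.1 in DKO libraries. The mean difference was −12.7 CPM per kilobase. Hdac7 contributed −7.00 to it, Hdac5 −5.52, Hdac4 −2.64 and Hdac9 2.45. Hdac9 made up 1.44 ± 0.133% of the class IIa sum in control static cells and 9.34 ± 1.07% in DKO static cells (SD, n = 3). Hdac7 remained the largest share in both, at 49.2 ± 0.244% and 47.0 ± 1.91%. These sums are descriptions with no test, and a kilobase-scaled count is not an amount of protein. They divide by all annotated exons, so a gene whose transcripts in use are shorter is scaled too low. Which Hdac9 transcripts were in use was not tested.

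**Figure D5:**
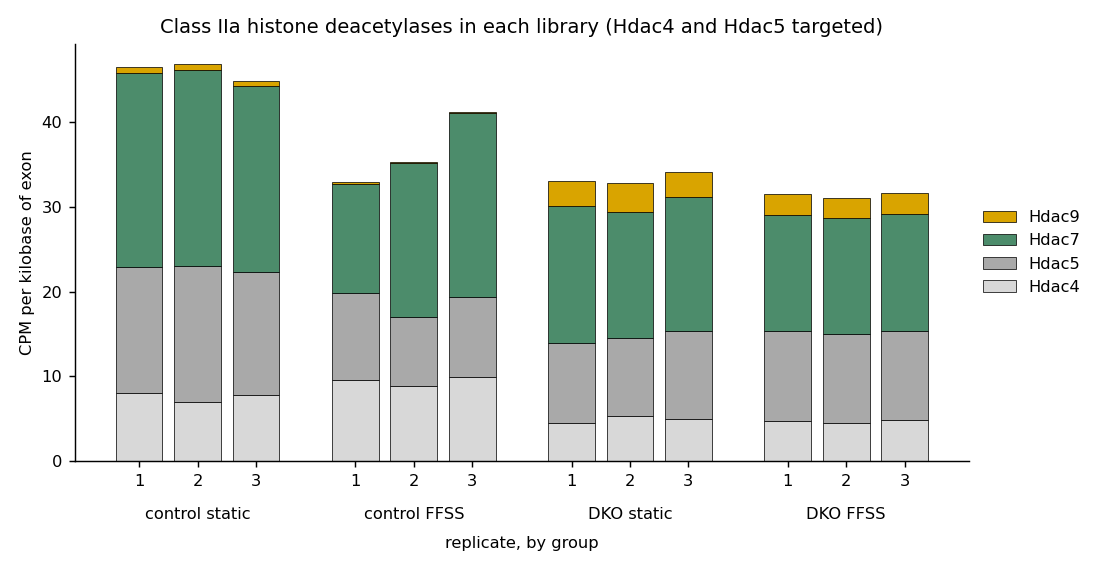
CPM per kilobase of exon of the class IIa genes in each of 12 libraries, stacked in the order Hdac4 (both IDs), Hdac5, Hdac7 and Hdac9, with bars starting at 0. The stacks reach 44.8 to 46.9 in control static and 32.9 to 34.1 in DKO static libraries, and the Hdac9 part is widest in DKO cells.

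After FFSS the class IIa sum was 32.9, 35.4 and 41.2 CPM per kilobase in control and 31.5, 31.1 and 31.6 in DKO libraries. The ranges were separate, with the control FFSS libraries more spread. The mean difference was −5.07 CPM per kilobase, to which Hdac4 contributed −4.76, Hdac7 −3.93, Hdac9 2.29 and Hdac5 1.32, so that Hdac5 was on the higher side here. These sizes depend on single control FFSS libraries. Hdac7 was at 12.9, 18.3 and 21.8 CPM per kilobase there, against 13.7 to 13.8 in DKO FFSS libraries. Hdac5 was at 10.3, 8.10 and 9.38, against 10.5 to 10.6. Hdac9 made up 0.404 ± 0.191% of the sum in control FFSS and 7.75 ± 0.231% in DKO FFSS cells. The class I sum was 75.0 ± 1.85 CPM per kilobase in control static and 67.8 ± 1.57 in DKO static cells, mostly through Hdac2. The class IIb sum was 19.5 ± 0.760 and 18.1 ± 0.483, and it reached 23.7 ± 3.69 in control FFSS cells against 18.9 ± 0.328 in DKO FFSS cells.

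Genes that work with or against the histone deacetylases were counted from 4 lists. Of 7 sirtuins, the NAD-dependent deacetylases, 2 were higher and 2 lower in DKO static cells (27.0% and 27.2% of all genes), with a median log2 fold change of −0.02 (0.01 over all genes). Sirt7 (1.25, adjusted p = 2.02e-06) and Sirt4 (0.87, adjusted p = 0.00277) were higher, and Sirt2 (−0.97, adjusted p = 3.9e-08) and Sirt1 (−0.20, adjusted p = 0.021) were lower. After FFSS, 1 sirtuin was higher in DKO cells (Sirt7, 0.77) and 1 lower (Sirt2, −0.75), against 27.0% and 29.6% of all genes. In control cells FFSS raised Sirt4 (0.80), Sirt7 (0.79) and Sirt6 (0.33) and lowered Sirt2 (−0.24), where 17.7% of all genes were raised and 18.1% lowered. In DKO cells 0 of the 7 passed the edgeR test after FFSS, with 2 at an unadjusted p under 0.05, and 0 passed in DESeq2 and in limma-voom. The shares of all genes called by edgeR there were 0.376% higher and 0.497% lower. Over the 14904 genes, DESeq2 called 399 and limma-voom 110.

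Of 29 corepressor complex subunits, 7 were higher and 12 lower in DKO static cells (27.0% and 27.2% of all genes), with a median of −0.05. Tbl1xr1, a subunit of the NCoR complex (0.79), and Sap18 (0.47) were the highest, and Sap30 of the Sin3 complex (−1.01) and Mta1 of the NuRD complex (−1.01) the lowest. After FFSS, 7 were higher and 8 lower in DKO cells (27.0% and 29.6% of all genes), from Tbl1xr1 (0.97) and Rcor2 (0.84) to Rbbp7 (−0.63) and Mta1 (−0.50). Rcor2 was lower in DKO than in control static cells (−0.95, edgeR, adjusted p = 0.0171). Its level in control FFSS cells spread widely, at 74.75 ± 39.37 CPM (SD). In control cells FFSS raised 3 and lowered 8 of the 29 (17.7% and 18.1% of all genes). Sap18 (0.32) was among those raised. Rcor2 of the CoREST complex (−2.11, adjusted p = 0.000887) and Sap30 (−1.47, adjusted p = 8.66e-06) were at the lower end. The interaction passed for Rcor2 (1.79, adjusted p = 0.0448), Sap30 (0.87, adjusted p = 0.0235) and Mta1 (0.51, adjusted p = 0.0221). Of all genes tested, 2.28% passed with a positive and 1.68% with a negative interaction. After FFSS in DKO cells 0 of the 29 passed in edgeR, with 7 at an unadjusted p under 0.05, against 2 in DESeq2 and 0 in limma-voom. Of all 14904 genes, edgeR called 0.376% higher and 0.497% lower there, DESeq2 called 399 and limma-voom 110.

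Of 10 lysine acetyltransferases, which add what the deacetylases remove, 2 were higher and 5 lower in DKO static cells, beside 27.0% and 27.2% of all genes, with a median of −0.10. Kat6a (0.31) and Kat6b (0.20) were higher, and Crebbp (−0.38) and Kat2a (−0.30) were the lowest. After FFSS, Kat6a was higher (0.22) and Crebbp (−0.44), Kat2a (−0.31) and Kat7 (−0.15) were lower in DKO cells, beside 27.0% and 29.6% of all genes. FFSS lowered Kat8 in control cells (−0.40), where 18.1% of all genes were lowered, and Kat2b in DKO cells (−0.34, adjusted p = 0.0444), where 0.497% were.

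Of 18 kinases of class IIa histone deacetylases and 14-3-3 proteins, which hold phosphorylated class IIa proteins in the cytoplasm, 17 were tested. In DKO static cells 3 were higher and 8 lower (27.0% and 27.2% of all genes), with a median of −0.16. Camk2a (0.62) and the 14-3-3 gene Ywhaq (0.30) were the highest, and Camk2b (−1.53) and Camk1 (−0.60) the lowest. Camk2b was low in level, at 0.827 CPM in DKO static and 2.40 CPM in control static cells (SE of the log2 fold change 0.36). Camk1 was at 113 and 172 CPM. In the FFSS comparison 4 were higher and 9 lower in DKO cells (27.0% and 29.6% of all genes), with Camk2a (0.94) and Ywhaq (0.51) at the top and Camk4 (−0.96) and the 14-3-3 gene Sfn (−0.84) at the bottom. Camk4 was low in level too, at 1.84 ± 0.436 CPM in DKO FFSS and 3.57 ± 1.32 CPM in control FFSS cells (SD). FFSS in control cells raised 3, among them Sfn (0.44) and Mark2 (0.21), and lowered 5, of which Camk2a (−0.66) and Camk2d (−0.56) fell most, where 17.7% and 18.1% of all genes were raised and lowered. The interaction passed for Camk2d (0.39, adjusted p = 0.042), where 2.28% of all genes passed with a positive and 1.68% with a negative value. After FFSS in DKO cells 0 of the 17 passed in edgeR, with 2 at an unadjusted p under 0.05, against 1 in DESeq2 and 0 in limma-voom. Of all 14904 genes, edgeR called 0.376% higher and 0.497% lower in that comparison, DESeq2 called 399 and limma-voom 110.

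The genes whose log2 CPM followed Hdac9 most closely over the 12 libraries, among 11413 genes with an average log2 CPM above 1, were Insig2 (Pearson r = 0.996), Rnf19a (0.995) and Uaca (0.994). For Hdac7 they were Dzip1 (0.975), Fermt2 (0.966) and Rad54b (0.953). The libraries fall into 4 groups, so these values mostly describe shared differences between groups and carry no p. Among the members, Hdac6 ran most nearly opposite to Hdac9 (r = −0.970), and Hdac11 was the nearest in the same direction (r = 0.389).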

How the data were processed

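Total RNA of 12 Ocy454 samples was sequenced by the authors as short single-end reads, aligned with STAR to mm9 with Ensembl annotation and counted per gene with HTSeq without regard to strand. The deposited values are raw counts, 1 file per library, not normalised or filtered. Reads in stretches shared by 2 genes, and reads that map to several places, are not counted. The summary lines of HTSeq (22.5% to 25.9% of each file's reads) were left out of library sizes. Groups and replicate numbers came from the sample titles. The labels do not say that replicates were separate cultures, so p-values measure only the spread between these samples.

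Genes with 0 counts in 2 or more libraries were removed, as in the study, leaving 14904 genes. One model of the 4 groups was fitted to all 12 libraries with edgeR 4.0.16 in R 4.3.3 (TMM, robust quasi-likelihood), with Benjamini-Hochberg adjustment over all genes tested and a threshold of 0.05. All 9 members were tested, as were Hdac4 and Hdac5. CPM uses TMM-scaled totals, and log2 CPM a prior count of 2. Each SE follows from the log2 fold change divided by the root of its F value. Intervals are at 95% with the degrees of freedom of the fit. Exon lengths are unions from the mm9 annotation. The fitting was tested on simulated data. Alternatives were RLE factors, library totals alone, filterByExpr, no filter, the 6 libraries of a comparison, DESeq2 1.42.0, limma-voom (limma 3.58.1), the replicate block, the share of reads outside genes as covariate, other thresholds, and leaving out each library. Because the share of reads outside genes went with the groups, values from that fit may lack part of an FFSS or genotype difference. The lowest counts of a member were 20 to 38, for Hdac9 in control FFSS cells. The 3-count floor covers counting error only, since reads without molecular identifiers are not independent molecules.

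All members, the targeted genes and, from 4 gene lists, the 2 highest and 2 lowest genes past the threshold are named, except 1 that is not reported here. The 3 genes most like the 2 members with the largest static difference were chosen by Pearson r. The members and lists were chosen with earlier results of these data known. Promoter windows are from RefSeq (GRCm38.p6), and 6 of 9 members had an entry.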

Additional observations from a re-analysis of the deposited data

Results flagged for a closer look

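The response to FFSS differed between control and DKO cells for Hdac9, by a test of the difference itself. The interaction was 1.86 on the log2 scale (edgeR, adjusted p = 0.000953), and all 3 DKO FFSS libraries kept a larger percent of the static level than all 3 control FFSS libraries. The targeted Hdac5 differed in the same way, with an interaction of 0.85 (edgeR, adjusted p = 0.00152).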

How the results depend on the processing

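In static cells 5 members passed the threshold for DKO against control. With more than a 2-fold change required, 1 did. In the other settings the count ran from 4 to 7. It was 7 with only the 6 libraries and without control FFSS replicate 1, a library outside this comparison. Calls over all genes went from 8084 to 9726 and 9539 in those fits. The count was 4 in DESeq2 (7863 calls over all genes), without a filter (8129 of 24360 genes) and with the replicate block (7985). For DKO against control in FFSS cells (4 members, 8438 calls over all genes), the count was 7 with library totals alone (9056 calls). It was 2 without a filter on low counts (8443 of 24360 genes) and 2 with only the 6 libraries of the comparison (7023). It was 1 with more than 2-fold and 2 at an adjusted p under 0.01. Leaving out 1 library gave between 2 and 4 members. It was 2 without DKO FFSS replicate 2 (7621 calls) or 3 (7581). For FFSS in control cells (5 members), it was 2 with the 6 libraries and 3 with the share of reads outside genes as covariate, while calls over all genes went from 5338 to 2463 and 2290. It was 1 with 2-fold and 2 at 0.01. Leaving out 1 library gave between 3 and 8 members. It was 8 without control FFSS replicate 1 (8222 calls over all genes). It was 3 without control static replicate 1 (3815 calls) or 3 (3639). For FFSS in DKO cells (1 member), it was 3 with the 6 libraries and 2 with the covariate, while calls over all genes went from 130 to 1777 and 1483. It was 0 with 2-fold and 0 at 0.01, and between 0 and 3 on leaving out 1 library (13 to 1567 calls over all genes). For the interaction (1 member, 591 calls over all genes), it was 2 in DESeq2 (1124 calls) and 3 with the covariate (874). It was between 1 and 5 on leaving out 1 library, with 5 without control FFSS replicate 1 (5630 calls). Apart from thresholds and left-out libraries, the cause of these shifts was not tested.

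Same-numbered libraries showed little shared deviation, with a correlation of deviations of 0.00226 on average (−0.0603 to 0.0632). This cannot show whether same-numbered samples were handled together, which the labels do not state. With the replicate block, 0 members passed for FFSS in DKO cells, where calls over all genes went from 130 to 70. Hdac8 kept −0.44 there (edgeR, adjusted p = 0.0653). Hdac11 in static cells (adjusted p = 0.066), Hdac7 in FFSS cells (0.0521) and Hdac3 for FFSS in control cells (0.0725) also missed the threshold.

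Hdac9 kept its direction and its call in every alternative fit of DKO against control, of FFSS in control cells and of the interaction. The values that changed sign lay between −0.18 and 0.32 as reported and passed no threshold there. With library totals alone, which put the median of all genes at −0.07 in static cells, −0.25 between genotypes in FFSS cells, 0.13 for FFSS in control cells and −0.13 for the interaction (0.01, −0.05, 0.01 and −0.02 as reported), Hdac3 (−0.016) and Hdac8 (−0.013) changed sign in static cells, Hdac10 (−0.17) in FFSS cells and Hdac1 (0.089) for FFSS in control cells. With the share of reads outside genes as covariate, Hdac10 changed sign in static cells (−0.16), for FFSS in control (−0.32) and in DKO cells (−0.060) and in the interaction (0.26), as did Hdac1 for FFSS in control cells (0.03) and, for FFSS in DKO cells, Hdac2 (0.016), Hdac6 (−0.050) and the shorter Hdac4 ID (0.11). Leaving out 1 library gave −0.15 to 0.26 for Hdac10 between genotypes in FFSS cells, −0.067 to 0.023 for Hdac1 and −0.15 to 0.20 for the shorter Hdac4 ID for FFSS in control cells, −0.0032 to 0.050 for Hdac3 and −0.24 to 0.0079 for Hdac4 for FFSS in DKO cells, and −0.013 to 0.35 for Hdac7, −0.36 to 0.054 for Hdac10 and −0.25 to 0.11 for the shorter Hdac4 ID in the interaction. The fit of 6 libraries could not be made for the interaction, which needs all 12.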

Other observations

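The genes next to Hdac9 on the chromosome were looked at after their values were seen. Twist1, a transcription factor gene 87.8 kb away, was lower in DKO cells where Hdac9 was higher, with log2 fold changes of −1.35 ± 0.10 (SE) in static cells (edgeR, adjusted p = 9.68e-08) and −1.36 ± 0.10 in FFSS cells (adjusted p = 8.76e-08). Its response to FFSS in control cells was 0.06 ± 0.10 (adjusted p = 0.66), whereas Hdac9 fell. Of the 7 protein-coding genes tested within 1.5 Mb of Hdac9, 6 (Twist1, Twistnb, Atxn7l1, Ahr, Sypl and Nampt) were lower in DKO static cells, from −0.32 (Twistnb) to −1.49 (Atxn7l1), where 27.2% of all genes tested were lower. Snx13 gave 0.15 ± 0.07 in static cells (adjusted p = 0.0798) and was higher in DKO than in control FFSS cells (0.33 ± 0.07, adjusted p = 0.000808). In control cells FFSS lowered Nampt (−1.02 ± 0.05, adjusted p = 3.46e-08), Snx13 (−0.33 ± 0.07, adjusted p = 0.00296) and Sypl (−0.23 ± 0.08, adjusted p = 0.0404) and raised Twistnb (0.30 ± 0.10, adjusted p = 0.0408) and Ahr (0.24 ± 0.07, adjusted p = 0.0141), where 18.1% of all genes tested were lowered and 17.7% raised.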
